A study of Mus musculus with 4 samples.

Results

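Costimulatory and inhibitory receptors of T cell activation were followed through thymic invariant natural killer T (iNKT) cell development in C57BL/6 and Hivep3-/- mice. They were taken by gene symbol from the deposited matrices, 9 of the 31053 genes counted: Icos, Cd28, Ctla4, Pdcd1, Tigit, Lag3, Izumo1r, Cd27 and Cd226. Single-cell transcripts were counted with droplet 5' chemistry (10x Genomics), 1 library per mouse, in 2 C57BL/6 wildtype mice and 2 Hivep3-/- mice. All mice were untreated and between 8 and 9 weeks old, and the Hivep3-/- line had been backcrossed to the C57BL/6 background. The libraries address what the loss of HIVEP3, a zinc finger protein, does to developing iNKT cells. Cells were sorted with PBS57-CD1d tetramer, with CD44low and CD44high cells entering in equal numbers, so the sort fixed part of the class shares.

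Costimulators of the CD28 family act beside the T cell receptor. CD28 and ICOS recruit phosphoinositide 3-kinase when they meet their ligands, while CTLA-4 competes with CD28 for the same ligands and PD-1 carries phosphatases to the activated receptor complex. CD226 and TIGIT form a matched pair of another family: both bind the poliovirus receptor (PVR), CD226 as a costimulator and TIGIT as an inhibitor. LAG-3 resembles CD4 and restrains T cell activation, CD27 is a costimulator of the TNF receptor family, and Izumo1r encodes folate receptor 4 (FR4). In the thymus, ICOS and FR4 on the surface serve to tell iNKT subsets apart, and signals from the T cell receptor raise PD-1 on newly selected iNKT precursors.

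The 4 libraries held 31381738 to 48291764 unique molecular identifiers (UMIs), and 19647 cells were kept, whose median depth was 4596 and 5268 UMIs in C57BL/6 and 6833 and 6491 in Hivep3-/-. The cells fell into 16 clusters, of which 12 were named after 5 iNKT classes by markers that held none of the 9 receptors. The classes were stage 0-like (with markers of the earliest precursors), cycling-like, iNKT2-like, iNKT17-like and iNKT1-like. The other 4 clusters had no name and held between 16.9% and 26.5% of the cells of a library. C57BL/6 replicate 1 stood apart in sex-linked transcripts, with 14609 Xist UMIs and 0 UMIs of 4 Y-linked genes. The other libraries had 3 to 25 and 3568 to 4879. Each receptor difference called within a class is therefore given without C57BL/6 replicate 1 as well. Differences of other genes and genotype-by-class terms are given from all 4 libraries only. Hivep3 was counted in every library and was higher in Hivep3-/-. It had 1735 and 929 UMIs of 45022744 and 25518692 kept in C57BL/6, and 3464 and 2122 of 34179266 and 31221520 in Hivep3-/-. As the sources used here do not say which part is deleted, the genotype labels could not be checked by these counts. Pairs of libraries shared 18 to 43 cell barcodes. Whether libraries of the 2 genotypes were prepared together is not given either, so a batch that follows genotype cannot be told apart from it.

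Cd28, Ctla4 and Icos lie within 283.5 kb of each other on mouse chromosome 1 (GRCm38, the assembly called mm10): Cd28 at 60716800 to 60773359, Ctla4 at 60887000 to 60915832 and Icos at 60977927 to 61000320, all on the plus strand. Pdcd1 lies farther along the same chromosome, at 94038305 to 94052553 on the minus strand. Tigit is on chromosome 16 (43648867 to 43664146, minus strand) and Izumo1r on chromosome 9 (14885814 to 14903949, minus strand). Lag3 and Cd27 are both on chromosome 6, at 124904361 to 124911705 and 125232622 to 125237010, on the minus strand. Annotated genes on the same strand overlap Icos (Gm37039), Ctla4 (the ribosomal protein pseudogene Rpl18-ps1) and Cd27 (Mir8113), and reads from such overlaps cannot be assigned with certainty.

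For 5 of the 9 receptors RefSeq (GRCm38.p6) gave a promoter window, and in 2 of them, Tigit and Pdcd1, the 250 bases before the start touched no annotated gene. Both are shown because their genotype difference was not the same in every class. They are read 5′ to 3′ along the gene, with matches to GGAAA on either strand in capitals. GGAAA is the core that NFAT proteins, the calcium-driven factors of T cell activation, bind.
Tigit, chr16:43664185-43664434, minus strand: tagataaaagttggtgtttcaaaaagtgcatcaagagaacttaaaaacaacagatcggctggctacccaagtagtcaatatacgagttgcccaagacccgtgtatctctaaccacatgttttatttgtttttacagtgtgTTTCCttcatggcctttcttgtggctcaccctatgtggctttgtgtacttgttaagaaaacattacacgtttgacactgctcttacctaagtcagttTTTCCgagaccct
Pdcd1, chr1:94052554-94052803, minus strand: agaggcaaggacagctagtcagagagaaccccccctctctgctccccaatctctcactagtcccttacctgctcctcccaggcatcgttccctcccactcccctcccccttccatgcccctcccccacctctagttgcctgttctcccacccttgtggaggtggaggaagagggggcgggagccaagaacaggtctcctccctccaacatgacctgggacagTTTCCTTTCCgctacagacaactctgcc
Each window held 2 such matches, all on the strand opposite to the gene. In Tigit they began 110 and 13 bases before the start, and in Pdcd1 they lay side by side at 28 and 23 bases. A window of this length held at least 1 GGAAA in 55.6% of 32851 promoters, so the match is common. Neither window held the T-box element TCACAC (12.3% of promoters), the E-box form CANCTG (44.8%) or the AP-1 site TGANTCA (6.75%). Other forms of the E-box were not searched. The κB-like pattern of GGG and CC set 5 bases apart (45.8%) was absent from both too, κB being the kind of site that HIVEP proteins were first found to bind. Among the windows not shown, that of Cd27, which touched Vamp1, held 3 overlapping matches to the κB-like pattern, counting both strands. Those of Ctla4 and Izumo1r held none.

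Levels are given per 1000000 UMIs counted in a class of 1 library (CPM), and log2 differences are Hivep3-/- over C57BL/6 from edgeR on the summed counts, with n = 2 libraries per genotype. Fold values are ratios of mean CPM. The log2 differences follow TMM scaling between libraries, which shifted them against CPM by a median of -0.14 to -0.0716 by class. A fold value and a log2 difference of the same receptor therefore differ slightly, and small ones can differ in sign. The sums held 767810 to 19049485 UMIs per library and class, so counting error was largest in stage 0-like and iNKT17-like cells. Stage 0-like sums joined clusters 8 and 10, and cluster 8 gave most of their UMIs in every library. It held 1214574 and 644473 UMIs in C57BL/6 against 407790 and 123337 in cluster 10. In Hivep3-/- it held 1882915 and 1888884 against 582095 and 586092. Stage 0-like levels are therefore weighted towards cluster 8. Classes come from clusters of the same cells, so levels are compared between classes as a description, with no test. Of the 9 receptors, 2 of 8 tested were called (Benjamini-Hochberg adjusted p under 0.05) between genotypes in cycling-like cells, where 3.25% of all tested genes were called, 3 of 9 in iNKT1-like cells (0.732% of genes) and 1 of 7 in iNKT17-like cells (0.105%). None of 7 was called in stage 0-like cells (0.417% of genes) and none of 8 in iNKT2-like cells (0.298%) by edgeR, where 4 and 2 had an unadjusted p under 0.05 and DESeq2 called 0 and 1. The called receptors were Icos and Tigit in cycling-like cells, Tigit, Lag3 and Izumo1r in iNKT1-like cells, and Lag3 in iNKT17-like cells. The genotype difference itself varied between the classes for 7 of the 9, by the genotype-by-class test of edgeR that called 8.35% of genes. Cd28 and Ctla4 were the ones not called there. The receptors were chosen with earlier results of these data known, so counts of them called, here and below, are no test of the set.

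**Figure D1:**
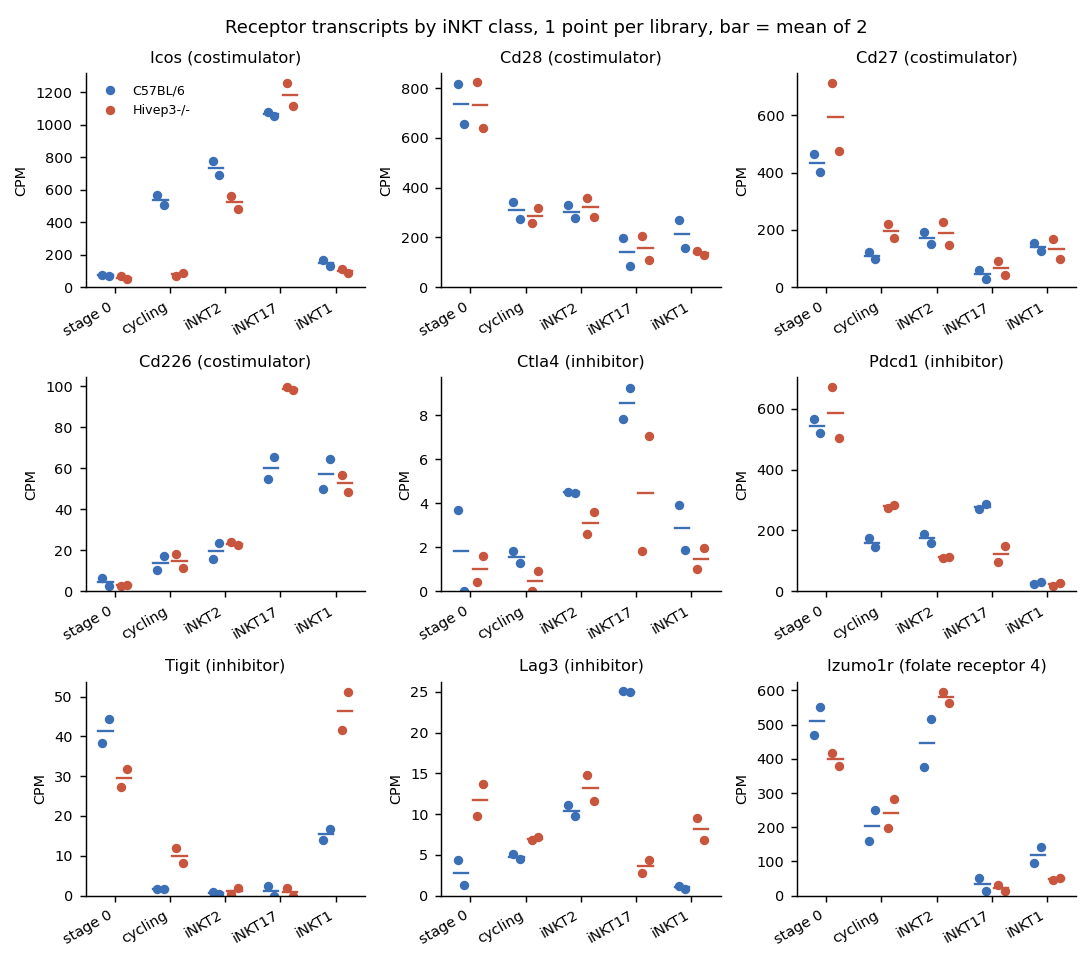
CPM of the 9 receptors (y axis, linear, each panel with its own scale) in the 5 iNKT classes (x axis), 1 point per library, blue for C57BL/6 and red for Hivep3-/-, with a bar at the mean of 2. Icos in cycling-like cells stands at 509 and 571 CPM in C57BL/6 against 71.5 and 89.9 in Hivep3-/-, and Tigit in iNKT1-like cells at 14.1 and 16.8 against 41.6 and 51.2.

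Icos separated all 5 classes in C57BL/6. It was lowest in stage 0-like cells and highest in iNKT17-like cells, where its mean of 1066 ± 14.6 CPM (SD, n = 2) was 14.2 times that of the stage 0-like cells (75.0 ± 4.70). Between them lay iNKT1-like (149.6 ± 27.3), cycling-like (540.0 ± 43.9) and iNKT2-like cells (734 ± 58.7), and the libraries of neighbouring classes in this order did not overlap. In Hivep3-/- the order changed at one place: cycling-like cells, at 80.7 ± 13.01 CPM, fell below iNKT1-like cells (102 ± 18.8), with overlapping libraries, and the other 3 classes kept their places.

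Icos in cycling-like cells was the only difference between genotypes called for a costimulator among the 9 receptors. It stood at 571 and 509 CPM in C57BL/6 replicates 1 and 2 and at 71.5 and 89.9 CPM in Hivep3-/- replicates 1 and 2, from 3704, 1596, 95 and 289 UMIs. Both Hivep3-/- libraries were far below both C57BL/6 libraries. The mean CPM was 6.69-fold lower, and the log2 difference was -2.86 (SE 0.176, adjusted p 0.000242, edgeR with Benjamini-Hochberg adjustment, n = 2 per genotype). Without C57BL/6 replicate 1 it was -2.79 and still called, and the adjusted p lay under 0.01 in all 12 alternatives run. Counting the unnamed cluster 5, which is led by the replication genes Cdc6 and Mcm3, among the cycling cells brought it to -1.995 (adjusted p 0.00153).

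The cells behind this class were not made up alike in the 2 genotypes. Cluster 11 (led by Ccnb2) held 57.6% of the cycling-like cells of C57BL/6 and 29.8% of those of Hivep3-/-, cluster 12 (Hist1h2ap) 37.9% and 53.8%, and cluster 14 (Mki67) 4.52% and 16.5%. Cluster 14 was small, with 19 and 15 cells in C57BL/6 and 37 and 20 in Hivep3-/-. Of these cells, 52.6% and 6.67% in C57BL/6 and 16.2% and 35% in Hivep3-/- had a doublet score in the top 5% of the library. The 23 iNKT1 markers summed to 1157 and 1487 CPM in the cycling-like cells of C57BL/6 and to 7085 and 2667 CPM in those of Hivep3-/-. The 8 iNKT2 markers summed to 1002 and 852 against 531 and 474. Within iNKT2-like cells the same 8 markers were lower in Hivep3-/- too, at 1313 and 1139 against 787 and 705 CPM. Among them are Zbtb16, Il4, Plac8 and Cd4, which the study reported as lower in Hivep3-/- cells. Icos was lower in Hivep3-/- within each of the 3 clusters: 621 and 597 against 102 and 146 CPM in cluster 11, 528 and 457 against 60.6 and 71.2 in cluster 12, and 125 and 92.5 against 51.4 and 31.8 in cluster 14. In the unnamed cluster 5 it stood at 562 and 525 CPM in C57BL/6 and at 252 and 195 in Hivep3-/-. The part of this makeup in the class-wide value was not tested.

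**Figure D2:**
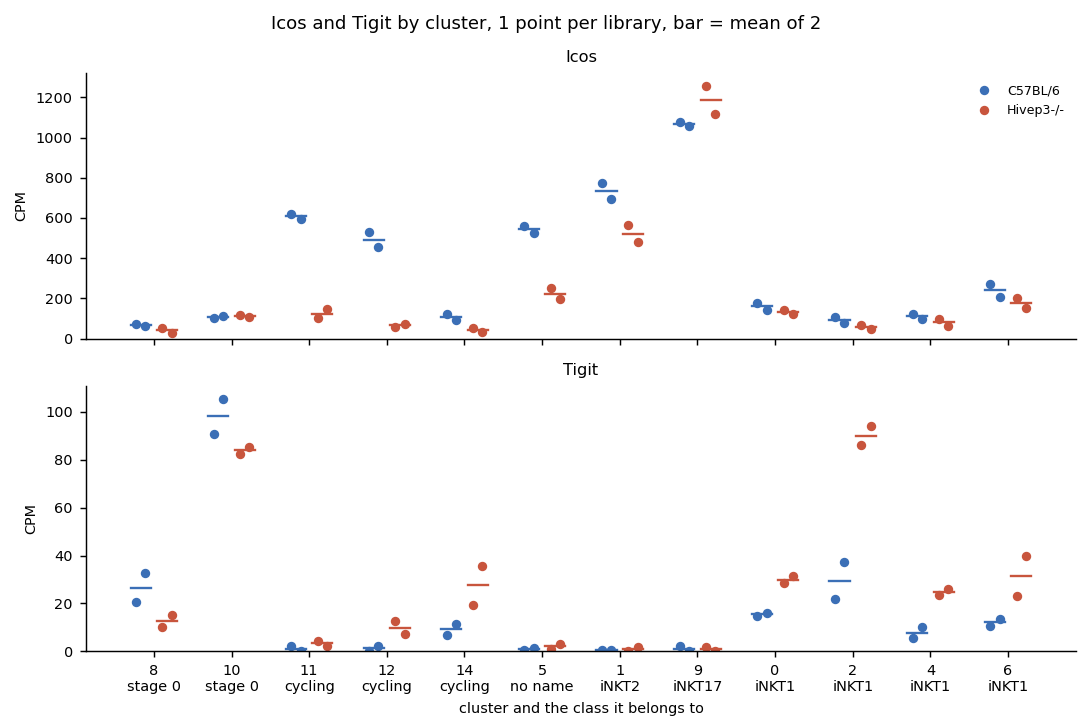
CPM of Icos (top) and Tigit (bottom) on linear axes in 12 clusters (x axis, with the class of each), 1 point per library, blue for C57BL/6 and red for Hivep3-/-, bar at the mean of 2. Icos is lower in Hivep3-/- in clusters 11, 12, 14 and 5, and Tigit is higher in Hivep3-/- in clusters 0, 2, 4 and 6, all 4 of them iNKT1-like.

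Elsewhere Icos differed less between genotypes and did not pass the test. In iNKT2-like cells it stood at 776 and 693 CPM in C57BL/6 and 564 and 481 in Hivep3-/-, groups that did not overlap, with a log2 difference of -0.59 (95% interval -0.89 to -0.29, adjusted p 0.178, edgeR). In iNKT1-like cells it stood at 169 and 130.2 CPM against 115 and 88.3, again apart, with -0.64 (-1.03 to -0.24, adjusted p 0.233). Stage 0-like cells had 78.3 and 71.6 CPM against 69.0 and 47.7, with -0.51 (-0.96 to -0.05, adjusted p 0.502). iNKT17-like cells were the one class in which the Hivep3-/- libraries, at 1258 and 1115 CPM, lay above those of C57BL/6, at 1077 and 1056, with 0.08 (-0.23 to 0.39, adjusted p 0.975). The genotype difference in cycling-like cells was lower than that in iNKT1-like cells by 2.21 on the log2 scale (interaction term -2.21, SE 0.160, adjusted p 3.89e-08), and that in iNKT17-like cells was above it by 0.67 (SE 0.146, adjusted p 0.0415, edgeR).

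The share of cells with an Icos UMI followed the same pattern. After every cell was thinned to 2000 UMIs, 59.4% and 53.4% of C57BL/6 cycling-like cells and 10.9% and 11.2% of Hivep3-/- cycling-like cells held one, against 91.2%, 91.7%, 36.3% and 36.1% before thinning, when their median depth was 11847, 15598, 12126 and 14035 UMIs. In iNKT17-like cells the thinned shares were 81.8% and 83.2% against 91.7% and 77.7%. As a level in cells that should lack most of these receptors, 3 of 22 B cell-like cells (13.6%; median depth 1726 to 3508 UMIs per library) held an Icos UMI before thinning and 0 of the 16 deep enough did after it, which allows a share of up to 18.8%. Thinning left out 502 and 91 C57BL/6 cells and 82 and 75 Hivep3-/- cells that held fewer UMIs.

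**Figure D3:**
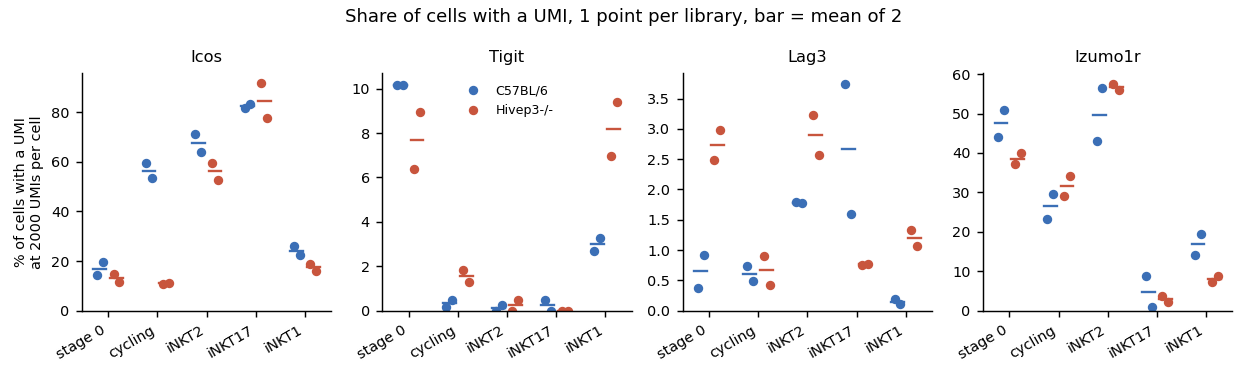
Percent of cells with at least 1 UMI of Icos, Tigit, Lag3 and Izumo1r (y axis, linear, own scale per panel) after thinning each cell to 2000 UMIs, by iNKT class (x axis), 1 point per library, blue for C57BL/6 and red for Hivep3-/-, bar at the mean of 2. In iNKT1-like cells Tigit was found in 2.71% and 3.27% of C57BL/6 cells and in 6.96% and 9.39% of Hivep3-/- cells.

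Cd28, the classical costimulator, was highest in stage 0-like cells in both genotypes, at 736 ± 112 CPM in C57BL/6 and 732 ± 128 in Hivep3-/-, and was 5.17 times lower in C57BL/6 iNKT17-like cells, its lowest class there (142 ± 78.5). In Hivep3-/- the lowest class was iNKT1-like (138 ± 9.43), whose libraries overlapped with the iNKT17-like ones. No genotype difference of Cd28 was called. The largest was in iNKT1-like cells, with 269 and 159 CPM in C57BL/6 replicates 1 and 2 and 144 and 131 CPM in Hivep3-/-. The groups did not overlap, but the C57BL/6 libraries differed more from each other than the lower of them did from Hivep3-/-, and the log2 difference was -0.71 (-1.25 to -0.17, adjusted p 0.377, edgeR). In the other 4 classes the genotypes overlapped and the log2 difference ranged from -0.23 in cycling-like cells (-0.63 to 0.16) to 0.06 in iNKT17-like cells (-0.66 to 0.79).

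Cd27, the TNF receptor family costimulator, shared the early peak of Cd28. Its mean in stage 0-like cells was 434 ± 43.1 CPM in C57BL/6 and 595 ± 167 in Hivep3-/-, and it was lowest in iNKT17-like cells, at 44.5 ± 22.3 and 66.9 ± 35.9. Within the stage 0-like class, cluster 10, led by Cd24a and Itm2a, had 824 to 1386 CPM per library and cluster 8 had 286 to 505. Over the 20 combinations of class and library, Cd27 and Cd28 had the highest correlation between any 2 of the 6 receptors compared in this way (Pearson r of 0.902 between log2 CPM values), a description over points that share libraries and depth. In cycling-like cells Cd27 stood at 121 and 99.8 CPM in C57BL/6 and at 221 and 172 in Hivep3-/-. The groups were apart, and the log2 difference of 0.68 (0.28 to 1.08) had an adjusted p of 0.0848 by edgeR and was not called, but it was without Hivep3-/- replicate 2 (0.81, adjusted p 0.0323). It exceeded the difference in iNKT1-like cells by 0.88 (interaction term, SE 0.151, adjusted p 0.0007).

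Cd226, the costimulator of the PVR pair, was higher in the mature classes, in C57BL/6 in the reverse order of Cd28 (Pearson r of -0.903 over the same 20 points). The gene lies on the plus strand of chromosome 18, at 89176967 to 89272229. C57BL/6 stage 0-like cells had 4.69 ± 2.95 CPM, cycling-like 13.9 ± 4.66, iNKT2-like 19.6 ± 5.52, iNKT1-like 57.4 ± 10.3 and iNKT17-like 60.2 ± 7.70 CPM, the last 2 with overlapping libraries. In Hivep3-/- the same order held, with 98.8 ± 1.05 CPM in iNKT17-like cells now clear of iNKT1-like cells (52.7 ± 5.92). In iNKT17-like cells the libraries of C57BL/6 stood at 54.8 and 65.7 CPM and those of Hivep3-/- at 99.5 and 98.0. They did not overlap, but the log2 difference of 0.65 (0.19 to 1.10, adjusted p 0.600, edgeR) was not called. The difference between classes was called for Cd226 as a whole (adjusted p 0.0443), and no single class differed from iNKT1-like cells at an adjusted p under 0.05. In stage 0-like cells it had too few UMIs for a test (2 to 11 per library).

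**Figure D4:**
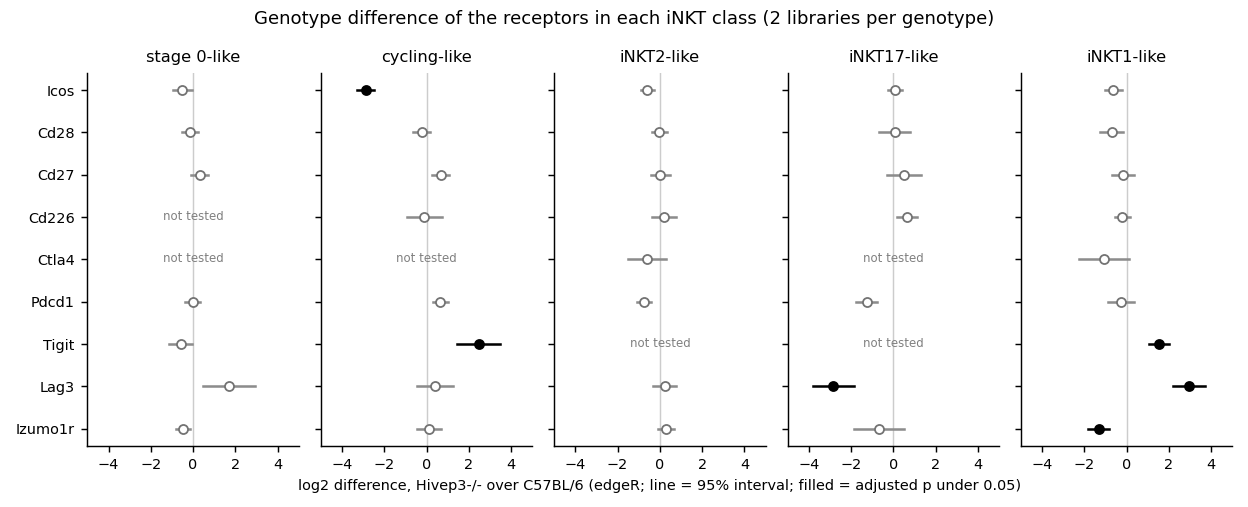
Log2 difference between Hivep3-/- and C57BL/6 (x axis) for the 9 receptors (y axis) in the 5 classes, with the 95% interval as a line. Filled circles mark the 6 differences with an adjusted p under 0.05 (edgeR, n = 2 per genotype): Icos and Tigit in cycling-like cells, Lag3 in iNKT17-like cells, and Tigit, Lag3 and Izumo1r in iNKT1-like cells.

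Ctla4, the inhibitory counterpart of Cd28, was scarce everywhere. No library had more than 46 UMIs of it in a class, and its highest mean was 8.54 ± 1.01 CPM in C57BL/6 iNKT17-like cells. The counts allowed a test in iNKT2-like and iNKT1-like cells alone. iNKT1-like cells had 3.903 and 1.89 CPM in C57BL/6 against 0.997 and 1.97 in Hivep3-/-, which overlap, with a log2 difference of -1.07 (-2.27 to 0.12, adjusted p 0.661, edgeR). iNKT2-like cells had 4.53 and 4.48 against 2.60 and 3.61 CPM, with -0.61 (-1.53 to 0.30, adjusted p 0.700). Differences of Ctla4 anywhere within these intervals remain compatible with the counts at this depth. Ctla4, Izumo1r and Tigit are also abundant in regulatory T cells. Their defining transcript Foxp3 had 7, 0, 2 and 2 UMIs over all kept cells of the 4 libraries.

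Pdcd1, which encodes PD-1, was highest in the stage 0-like class in both genotypes. Stage 0-like cells had 543 ± 33.5 CPM in C57BL/6 and 587 ± 117 in Hivep3-/-, and iNKT1-like cells had the lowest level in both, 27.7 ± 5.30 and 23.8 ± 7.10, a span of 19.6-fold and 24.7-fold. The order between them depended on genotype. In C57BL/6, iNKT17-like cells (279 ± 10.1) came second, ahead of iNKT2-like (174 ± 22.7) and cycling-like cells (160.1 ± 22.6), whose libraries overlapped. In Hivep3-/-, cycling-like cells (279 ± 7.34) came second and iNKT17-like (122 ± 38.4) and iNKT2-like cells (112 ± 2.99) overlapped below them. The genotype difference varied between classes (adjusted p 0.000351), and in cycling-like cells it exceeded that in iNKT1-like cells by 0.94 (SE 0.255, adjusted p 0.0232, edgeR).

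None of the Pdcd1 differences was called within a class. In cycling-like cells Pdcd1 stood at 176 and 144 CPM in C57BL/6 and at 274 and 284 in Hivep3-/-, with a log2 difference of 0.66 (0.31 to 1.02, adjusted p 0.0641, edgeR). The direction was the opposite in iNKT17-like cells, with 272 and 286 CPM against 94.9 and 149 and a log2 difference of -1.25 (-1.74 to -0.76, adjusted p 0.0974), and in iNKT2-like cells, with 189.9 and 158 against 109.6 and 114 and -0.73 (-1.07 to -0.40, adjusted p 0.143). In these 3 classes the genotypes were apart. The call depended on the libraries and the tool. In iNKT17-like cells DESeq2 called it (adjusted p 0.0159), as did edgeR without C57BL/6 replicate 1 (-1.31), without C57BL/6 replicate 2 (-1.20) or without Hivep3-/- replicate 2 (-1.68). In iNKT2-like cells it was called by DESeq2 (adjusted p 0.0421) and by edgeR without C57BL/6 replicate 2 (adjusted p 0.0226), and in cycling-like cells by edgeR without Hivep3-/- replicate 1 (adjusted p 0.0478). With no low-count filter edgeR called it in all 3 classes (adjusted p 0.0128 in cycling-like, 6.97e-07 in iNKT17-like and 0.00113 in iNKT2-like cells). Stage 0-like and iNKT1-like libraries overlapped, with -0.03 (-0.38 to 0.33) and -0.28 (-0.89 to 0.33).

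Tigit, the inhibitor of the PVR pair, was found at both ends of the classes and hardly in between. In C57BL/6 its level was 41.2 ± 4.29 CPM in stage 0-like and 15.4 ± 1.95 CPM in iNKT1-like cells, against 0.657 ± 0.184 to 1.57 ± 0.0373 CPM in iNKT2-like, iNKT17-like and cycling-like cells. Among stage 0-like cells, cluster 10 had 90.7 and 105 CPM in C57BL/6 and 82.5 and 85.3 in Hivep3-/-, while cluster 8 had 20.6 and 32.6 against 10.1 and 15.4. In Hivep3-/- the 2 ends changed places, with 46.4 ± 6.76 CPM in iNKT1-like and 29.5 ± 3.35 in stage 0-like cells.

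Tigit rose in the iNKT1-like cells of Hivep3-/- mice. It had 14.1 and 16.8 CPM in C57BL/6 replicates 1 and 2 (144 and 160 UMIs) and 41.6 and 51.2 CPM in Hivep3-/- (793 and 674 UMIs). Both Hivep3-/- libraries were above both C57BL/6 libraries. The mean CPM was 3.01 times as high, and the log2 difference was 1.52 (SE 0.197, adjusted p 0.0197, edgeR, n = 2 per genotype). Without C57BL/6 replicate 1 it was 1.41 (adjusted p 0.0970) and without C57BL/6 replicate 2 it was 1.65 (adjusted p 0.0526), neither called, while the 9 other alternatives kept the call. In stage 0-like cells the level was lower in Hivep3-/-, with 38.2 and 44.3 CPM against 27.2 and 31.9, not overlapping and not called (-0.59, -1.13 to -0.04, adjusted p 0.515). The difference between these 2 classes was itself called (interaction term -2.14, SE 0.289, adjusted p 0.000186).

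Tigit also rose in cycling-like cells, from a very low level. The libraries held 10 and 5 UMIs in C57BL/6 (1.54 and 1.59 CPM) and 16 and 26 in Hivep3-/- (12.04 and 8.09 CPM). The groups were apart, with a log2 difference of 2.47 (SE 0.444, adjusted p 0.0263, edgeR), which rests on 57 UMIs in all. It lost the call without C57BL/6 replicate 1 (2.42, adjusted p 0.296), without C57BL/6 replicate 2 (2.50, adjusted p 0.179), without Hivep3-/- replicate 1 (2.23, adjusted p 0.0642), with DESeq2 (2.50, adjusted p 0.0530) and without correction between libraries (3.30, adjusted p 0.0832). By cluster, Tigit had 2.21 and 0 CPM against 4.53 and 2.13 in cluster 11, 0.368 and 2.22 against 12.5 and 7.42 in cluster 12, and 6.92 and 11.6 against 19.6 and 35.8 in cluster 14. The genotypes overlapped in cluster 11, and each of these values rests on a part of the 57 UMIs. Cluster 14 held 15 to 37 cells per library. Clusters 12 and 14 held a larger share of the class in Hivep3-/- than in C57BL/6.

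The iNKT1-like class was not made up alike either, and the level of Tigit differed between its clusters. Cluster 2, led by the cytotoxic genes Ccl5 and Gzma, held 15.3% of the iNKT1-like cells of C57BL/6 and 30.02% of those of Hivep3-/-, and had the highest Tigit of the 4 large clusters in every library (21.7 and 37.3 CPM against 85.9 and 93.8). Within each of the other 3, Tigit was higher in Hivep3-/- too: 15.0 and 16.0 against 28.4 and 31.4 CPM in cluster 0, 5.45 and 10.1 against 23.7 and 26.0 in cluster 4, and 10.5 and 13.7 against 23.3 and 39.9 in cluster 6. After thinning to 2000 UMIs, 2.71% and 3.27% of C57BL/6 and 6.96% and 9.39% of Hivep3-/- iNKT1-like cells held a Tigit UMI, against 5.03%, 7.51%, 19.6% and 21.3% before thinning, when the median depth was 3416, 4600, 6489 and 5763 UMIs. No B cell-like cell held one, of 22, which allows a share of up to 13.6%, and 0.267% to 1.39% of iNKT2-like cells did before thinning.

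The largest changes of Icos and Tigit in CPM were placed in different classes. On the log2 scale both changed most in cycling-like cells among the classes tested, by -2.86 and 2.47. Icos fell in cycling-like cells, where it was abundant in C57BL/6 and Tigit nearly absent, and Tigit gained most in CPM in iNKT1-like cells, where Icos was low. In cycling-like cells both were called, Icos lower and Tigit higher. In iNKT1-like cells the log2 difference was -0.64 (-1.03 to -0.24) for Icos and 1.52 (1.06 to 1.98) for Tigit, of which the second alone was called. In stage 0-like cells both were lower in Hivep3-/- (log2 differences -0.51 and -0.59), and neither was called.

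Over the 20 combinations of class and library, the genes whose log2 CPM followed Icos most closely among 5349 genes with at least 20 CPM on average were Rora (r of 0.960), Lmo4 (0.942), Tnfrsf25 (0.941), Lxn (0.937) and Ero1l (0.923). Rora encodes a nuclear receptor of innate-like and type 17 lymphocytes, and Tnfrsf25 a costimulator of the TNF receptor family. For Tigit they were Bcl2 (0.921), Smyd3 (0.893), Litaf (0.890), Il4ra (0.880) and Gimap5 (0.878). Bcl2 is the survival factor of resting lymphocytes and Il4ra the receptor chain for interleukin 4. The points share 4 libraries and their depth, so these values are a description.

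Lag3, the CD4-like inhibitor, moved in opposite directions in iNKT1-like and iNKT17-like cells. In C57BL/6 it was highest in iNKT17-like cells (25.01 ± 0.0496 CPM) and lowest in iNKT1-like cells (1.01 ± 0.234), with iNKT2-like (10.4 ± 0.968), cycling-like (4.78 ± 0.441) and stage 0-like cells (2.81 ± 2.13) in between and no overlap between neighbours. In Hivep3-/- this order was lost: iNKT2-like (13.2 ± 2.22) and stage 0-like cells (11.7 ± 2.83) led, with overlapping libraries, and iNKT17-like cells (3.58 ± 1.19) were last.

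In iNKT1-like cells Lag3 was counted 12 and 8 times in C57BL/6 (1.17 and 0.840 CPM) and 182 and 90 times in Hivep3-/- (9.55 and 6.84 CPM). Both Hivep3-/- libraries lay well above both C57BL/6 libraries. The log2 difference of 2.94 (SE 0.325, adjusted p 0.00989, edgeR, n = 2 per genotype) was called in all 11 alternatives, with a range of 2.62 to 3.21, and was 3.21 without C57BL/6 replicate 1. Lag3 was higher in Hivep3-/- in clusters 0, 2, 4 and 6, from 0.373 to 1.35 CPM in C57BL/6 to 3.54 to 13.9 CPM. In iNKT17-like cells it was counted 32 and 27 times in C57BL/6 (25.04 and 24.97 CPM) and 3 and 5 times in Hivep3-/- (2.74 and 4.42 CPM), again without overlap. There the log2 difference was -2.83 (SE 0.444, adjusted p 0.0427, edgeR), and -2.85 without C57BL/6 replicate 1. The call was lost without Hivep3-/- replicate 1 (-2.50, adjusted p 0.288) and with DESeq2 (adjusted p 0.183). The difference between the 2 classes was the largest of any receptor, -5.82 on the log2 scale (SE 0.512, adjusted p 8.23e-07).

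Lag3 stayed a rare transcript in all of this. After thinning, 0.193% and 0.107% of C57BL/6 and 1.33% and 1.07% of Hivep3-/- iNKT1-like cells held a UMI, and 3.74% and 1.60% against 0.758% and 0.769% of iNKT17-like cells. Before thinning the shares were 0.425%, 0.365%, 4.07% and 2.903% in iNKT1-like cells and 9.59%, 8.73%, 2.26% and 3.82% in iNKT17-like cells. None of 22 B cell-like cells held one. In stage 0-like cells the libraries had 4.31 and 1.302 CPM in C57BL/6 and 9.74 and 13.7 in Hivep3-/-, apart but from 7, 1, 24 and 34 UMIs, with a log2 difference of 1.69 (0.47 to 2.92, adjusted p 0.353, edgeR).

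Izumo1r, the gene of FR4, fell in iNKT1-like cells of Hivep3-/- mice. It had 94.3 and 142 CPM in C57BL/6 replicates 1 and 2 and 46.6 and 52.9 CPM in Hivep3-/-. Both Hivep3-/- libraries were below both of C57BL/6, which themselves differed by more than the 2 Hivep3-/- libraries. The mean CPM was 2.38-fold lower, and the log2 difference was -1.31 (SE 0.214, adjusted p 0.0476, edgeR, n = 2 per genotype). It was -1.57 and called without C57BL/6 replicate 1. The call was lost without C57BL/6 replicate 2 (-0.99, adjusted p 0.108) and without Hivep3-/- replicate 1 (-1.16, adjusted p 0.0536). Izumo1r was lowest in cluster 2, which was larger in Hivep3-/-, but it was lower in Hivep3-/- within each of the 4 large iNKT1-like clusters: 109 and 149 against 59.9 and 75.2 CPM in cluster 0, 16.7 and 23.5 against 6.64 and 9.07 in cluster 2, 86.7 and 151 against 53.9 and 69.3 in cluster 4, and 141 and 226 against 84.2 and 76.1 in cluster 6.

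Along the classes, C57BL/6 Izumo1r was highest in stage 0-like (511 ± 57.9 CPM) and iNKT2-like cells (445 ± 99.8), whose libraries overlapped, and 15.6 times lower in iNKT17-like cells (32.7 ± 27.9). There the C57BL/6 libraries held 52.4 and 12.9 CPM and those of Hivep3-/- 32.0 and 12.4, which overlap, and the log2 difference of -0.67 (-1.84 to 0.50, adjusted p 0.956, edgeR) was called without C57BL/6 replicate 2 (-1.31, adjusted p 0.0341). In Hivep3-/- iNKT2-like cells led (580.3 ± 22.9) and stage 0-like cells followed (398 ± 25.5) without overlap. In iNKT2-like cells the 2 genotypes stood at 375 and 516 against 597 and 564 CPM, with a log2 difference of 0.29 (-0.10 to 0.68, adjusted p 0.664, edgeR), and in stage 0-like cells at 470.3 and 552 against 416 and 380.2, with -0.49 (-0.83 to -0.15, adjusted p 0.319). The genotype difference was above that in iNKT1-like cells by 1.59 in iNKT2-like cells (SE 0.267, adjusted p 0.00181) and by 1.43 in cycling-like cells (SE 0.281, adjusted p 0.0022). After thinning, 14.2% and 19.3% of C57BL/6 and 7.28% and 8.83% of Hivep3-/- iNKT1-like cells held a UMI, where 22.0%, 33.9%, 16.5% and 18.2% did before thinning.

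The list of 71 other genes of these pathways held further inhibitory receptors, TNF receptor costimulators, ligands, signalling proteins and factors that control the receptors, and all 71 were measured. In cycling-like cells 54 were tested, of which 2 rose and 4 fell in Hivep3-/-, where 1.61% of all genes rose and 1.64% fell, and the median log2 difference of the list was -0.15 against 0.03 for all genes. The risers were 2 receptors of cytotoxic lymphocytes: Cd160, at 38.2 and 52.9 CPM in C57BL/6 and 164 and 91.8 in Hivep3-/- (log2 difference 1.33, adjusted p 0.0431), and Cd244, at 0.308 and 0.957 against 9.03 and 4.67 (3.35, adjusted p 0.0376). Those that fell were Lgals3, which encodes galectin-3, a ligand of LAG-3 (596 and 428 against 103 and 75.3 CPM, -2.68, adjusted p 0.000996), Tnfrsf25 (22.2 and 23.9 against 6.77 and 4.36 CPM, -2.28, adjusted p 0.00889), the transcription factor gene Maf (-1.45, adjusted p 0.0385) and Cd6, a receptor that tempers T cell receptor signals (-0.95, adjusted p 0.0177, all by edgeR). The libraries of the 2 genotypes were apart for each of these 6 genes.

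The list moved little in the other classes. In iNKT1-like cells 1 of 62 tested rose and none fell, where 0.507% of genes rose and 0.225% fell: Cd244, with 10.1 and 13.2 CPM in C57BL/6 and 46.8 and 43.5 in Hivep3-/- (log2 difference 1.88, adjusted p 0.00435, edgeR). In stage 0-like cells 1 of 50 fell and none rose, where 0.350% of genes fell and 0.0677% rose: Lgals3, with 31.4 and 22.1 against 1.62 and 0.808 CPM (-4.56, adjusted p 0.00149, edgeR). None of 55 in iNKT2-like cells (0.0744% of genes higher, 0.223% lower) and none of 45 in iNKT17-like cells (0.0658% higher, 0.0395% lower) was called by edgeR, where 8 and 4 had an unadjusted p under 0.05 and DESeq2 called 1 and 0. The 21 signalling proteins, among them Pik3r1, Vav1 and Lcp2, were tested in all 5 classes and none was called in any, with medians between -0.13 and 0.07. In the 4 classes other than cycling-like cells the median of the whole list lay between -0.04 and 0.16.

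Markers of other cell types were summed in the same classes. The 8 markers of double positive thymocytes, the stage before iNKT selection, summed to 119.7 to 186 CPM in stage 0-like cells and to 13.2 to 56.6 CPM in the other classes, and Rag1 had 4 to 15 UMIs per library in stage 0-like cells. The 6 myeloid markers summed to 109 to 342 CPM, with Lyz2 at 0 in every library outside iNKT1-like cells. The 6 regulatory T cell markers summed to 649 and 707 CPM in C57BL/6 and 787 and 793 in Hivep3-/- iNKT1-like cells, with Foxp3 at 0 in 1 library of each genotype and Gpr83 at 0 in all 4, and to 1119 to 1470.4 CPM in iNKT17-like cells, with both genes at 0 in all 4. In iNKT17-like cells the myeloid sum of each library came from 2 of the 6 markers. Whether any of these sums came from cells of another type, and the part of such cells in the levels of the receptors, was not tested.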

How the data were processed

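Per the labels, thymic cells of 2 C57BL/6 and 2 Hivep3-/- mice were sequenced in 1 library each, and the authors deposited unnormalized UMI counts per gene and cell barcode, made with Cell Ranger 3.1.0 on mm10 (submitters' processing notes, which also list Seurat 3.1.4). The receptors and lists were chosen with earlier results of these data known. Cells with at least 500 and fewer than 4100 genes, at least 1000 UMIs and under 6% mitochondrial UMIs were kept and clustered (2000 variable genes, 30 components, mutual nearest neighbours between libraries, Seurat 5.3.0, resolution 0.8). The variable genes left out the receptors, the pathway list, T cell receptor segments, Hivep3 and 6 sex-linked genes. They also left out 26 genes that the study named as differing between genotypes. Clusters were named from at least 3 markers among their top 20 genes or by the level of the markers detected. These naming rules were chosen with the data already in view. Cluster 6, led by the interferon response genes Ifit3b, Ifit3 and Ifit1, was named iNKT1-like under them. No doublets were removed in the main analysis, and removing the 5% highest scores (scanpy 1.11.5) was an alternative. Counts were summed per library and class and tested with edgeR 4.0.16 (quasi-likelihood, TMM, Benjamini-Hochberg over all genes that passed filterByExpr), DESeq2 1.42.0 being an alternative. Receptors with too few UMIs for the filter were not tested. Other alternatives were RLE scaling, no filter, a replicate block, resolution 1.2, no correction between libraries and each library left out. Genes named beside the receptors are those of the pathway list that were called and the 5 most alike to Icos and Tigit. Intervals and limits cover counting error or the spread between these mice only.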

Additional observations from a re-analysis of the deposited data

Results flagged for a closer look

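For 7 of the 9 receptors the difference between Hivep3-/- and C57BL/6 was not the same in the 5 classes, by the genotype-by-class test of edgeR with Benjamini-Hochberg adjustment over 10778 genes, of which 8.35% were called. The adjusted p was 2.65e-09 for Icos, whose log2 difference ran from -2.86 in cycling-like to 0.08 in iNKT17-like cells. It was 2.17e-06 for Lag3, from -2.83 in iNKT17-like to 2.94 in iNKT1-like cells, and 0.000261 for Tigit, from -0.59 in stage 0-like to 2.47 in cycling-like cells. Pdcd1 (0.000351) ran from -1.25 in iNKT17-like to 0.66 in cycling-like cells, and Izumo1r (0.0026) from -1.31 in iNKT1-like to 0.29 in iNKT2-like cells. Cd27 (0.00398) ran from -0.17 in iNKT1-like to 0.68 in cycling-like cells, and Cd226 (0.0443) from -0.20 in iNKT1-like to 0.65 in iNKT17-like cells. The 5 classes of a mouse share its library, which the test fitted as a block, with the sums of the classes as separate observations.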

How the results depend on the processing

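The 6 called differences kept their direction in all 68 alternatives and lost the call in 11, and for the 33 tested and not called, 20 of 369 alternatives gave a call and 22 turned the direction. Among receptors, 1 was called with DESeq2 in cycling-like and in iNKT2-like cells, and 1 without correction between libraries in cycling-like cells. With no low-count filter 4, 2, 2 and 5 were called in cycling-like, iNKT2-like, iNKT17-like and iNKT1-like cells, the added ones being Pdcd1 and Cd27, Icos and Pdcd1, Pdcd1, and Icos and Cd28. Leaving out 1 library at a time gave 1 to 3 receptors in cycling-like, 0 to 1 in iNKT2-like, 0 to 3 in iNKT17-like, 1 to 3 in iNKT1-like cells and 4 to 7 by class, the lone library of an arm then being assumed to vary like the others. Over all genes, no filter gave 228, 886, 355, 94 and 464 calls in stage 0-like, cycling-like, iNKT2-like, iNKT17-like and iNKT1-like cells and 1535 by class. DESeq2 gave 72 in iNKT2-like and 157 in iNKT1-like cells, and no correction 15 in stage 0-like and 131 in cycling-like cells. Leaving out 1 library gave 40 to 286, 37 to 486, 44 to 156, 6 to 73, 39 to 170 and, by class, 267 to 771 calls. The cause was not tested.

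The replicate numbers are shared between genotypes, but 2 pairs cannot show a pairing, and same-numbered libraries deviated together with correlations of 0.0389 to 0.164. With the replicate block 141, 560, 14, 35 and 155 genes were called in the 5 classes, and 4, 2 and 4 receptors in cycling-like, iNKT17-like and iNKT1-like cells. The block added Pdcd1 (0.67, adjusted p 0.0305) and Cd27 (0.69, adjusted p 0.0236) in cycling-like, Pdcd1 (-1.28, adjusted p 0.00369) in iNKT17-like and Icos (-0.63, adjusted p 0.0482, all by edgeR) in iNKT1-like cells.

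Directions turned for Cd28 in iNKT2-like cells (0.035) and Cd226 in cycling-like cells (0.19) at resolution 1.2, and for Cd226 in cycling-like cells without correction (0.023). With 1 library left out, Cd28 ranged from -0.28 to 0.00091 in stage 0-like, -0.15 to 0.11 in iNKT2-like and -0.41 to 0.76 in iNKT17-like cells, and Pdcd1 from -0.19 to 0.11 in stage 0-like and -0.70 to 0.058 in iNKT1-like cells. Izumo1r ranged from -0.23 to 0.47 in cycling-like and -1.46 to 0.67 in iNKT17-like cells, Cd27 from -0.27 to 0.24 in iNKT2-like, -0.15 to 1.11 in iNKT17-like and -0.51 to 0.11 in iNKT1-like cells, and Cd226 from -0.45 to 0.26 in cycling-like and -0.12 to 0.48 in iNKT2-like cells. Counting cluster 5 as cycling-like was chosen after seeing the data. Depth limits Ctla4 in all classes and Tigit in iNKT2-like and iNKT17-like cells.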

Other observations

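The unnamed clusters held receptor levels that no class comparison covers, given here as values. Cluster 7 (893 cells, led by Tnni1, Htra3 and Klrb1a) had Lag3 at 5.20 and 2.77 CPM in C57BL/6, from 9 UMIs and 1 UMI, and at 27.4 and 24.7 CPM in Hivep3-/-, from 80 and 95 UMIs. Its Icos stood at 382 and 285 CPM in C57BL/6 and at 94.9 and 69.5 in Hivep3-/-. Of its cells, 42.0% and 45.2% in C57BL/6 and 13.7% and 12.7% in Hivep3-/- had a doublet score in the top 5% of the library. Such cells were kept for these values, and their part in the difference was not tested. Cluster 3 (1946 cells, led by Klra3, with Cxcr3 among its leading genes) had Lag3 at 2.79 and 4.02 CPM in C57BL/6 and at 38.8 and 24.8 in Hivep3-/-, and Icos at 367 and 298 against 260.4 and 257. Tigit in cluster 3 overlapped between genotypes, at 8.72 and 10.9 against 17.1 and 7.29 CPM. Over all kept cells, Icos stood at 500.01 and 382 CPM in C57BL/6 and 206 and 184 in Hivep3-/-, and Tigit at 6.06 and 9.40 against 28.1 and 27.0. These totals also move with the share of iNKT1-like cells, which was 39.0% and 52.5% of the kept cells in C57BL/6 and 61.4% and 52.1% in Hivep3-/-.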
